A study of Mus musculus with 96 samples.

Results

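Scgb1c1, Ptgds, Sprr1a and Ly6d are 4 genes, best known from epithelia and secretory tissues, that were higher in mouse liver after deletion of Rbbp5 in hepatocytes. They were picked by symbol from the 13094 entries of a gene expression table, with their levels in both genotypes and their course over time already known, so those levels are given here as a description. The tested livers carried Rbbp5 (flox/flox); alb-cre(+/-) and are called LKO, and their littermates carried Rbbp5 (flox/flox); alb-cre(-/-) and are called Flox, although the library titles name them WT. Both groups therefore held 2 floxed alleles and differed in the Cre transgene. All were male C57BL/6J mice, 3 to 4 months old and fed ad libitum, which spent 2 weeks in cycles of 12 h light and 12 h dark and then 24 h in darkness. Livers were collected every 2 h across 48 h, so each genotype gave 2 libraries at each of 24 circadian times (CT0 to CT46). CT0 to CT22 is called the first day below and CT24 to CT46 the second day. Each library came from whole liver of a mouse killed at that time, so a time course joins different animals. Cre under the albumin promoter acts in hepatocytes, and the other cells of the liver keep Rbbp5.

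RBBP5 is a core component common to the enzyme complexes that place methyl groups on lysine 4 of histone H3, a mark of active promoters and enhancers. Secretoglobins such as the product of Scgb1c1 are small secreted proteins of mucosal and glandular epithelia, and Scgb1c1 itself is known from nasal and olfactory mucosa. Ptgds encodes the lipocalin-type prostaglandin D synthase, which turns prostaglandin H2 into prostaglandin D2 and is abundant in meninges, choroid plexus and epididymis. Sprr1a encodes a small proline-rich protein that is cross-linked into the cornified envelope of squamous epithelia and is also induced in injured nerve and heart. Ly6d encodes a membrane-anchored protein of the Ly6 family that marks keratinocytes and early B lineage cells. None of the 4 is a typical product of the healthy adult hepatocyte.

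Values are gene-level fragments scaled by gene length and by the mapped fragments of the library (FPKM), and their depth in reads is unknown. Genes that have an entry are called measured below. Whether a gene without an entry was undetected or left out is not known here. Totals were 313376 to 452463 FPKM in LKO libraries and 328036 to 498760 FPKM in Flox libraries. Rbbp5 itself measured 1.61 to 4.23 FPKM in LKO livers (median 2.23) and 1.55 to 4.32 FPKM in Flox livers (median 3.39), so the genotypes overlapped. The sources used here do not say which segment of the gene is floxed. Between CT42 and CT46 the 6 LKO libraries stood apart: 13 markers of alveolar macrophages summed to 5440.2 to 10997 FPKM in them, against 32.2 to 190.0 FPKM in the 42 earlier LKO libraries and 33.7 to 124 FPKM in Flox. Rbbp5 in the same 6 libraries was 3.13 to 4.23 FPKM, against 1.55 to 3.56 FPKM in the 6 Flox libraries of those times. The genotype and LKO day differences of the 4 genes, their rhythm in LKO and their correlations are therefore also given without CT42 to CT46. Counts and means over all libraries, with no such value beside them, include these 6 LKO libraries. No batch of sequencing is named by the labels used here.

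The genes lie on 4 chromosomes in mm10. Scgb1c1 spans chr7:140845547-140846769 on the plus strand, Ptgds chr2:25466709-25470046, Sprr1a chr3:92483952-92485895 and Ly6d chr15:74762056-74763620, all 3 on the minus strand. The sequence before the RefSeq start (GRCm38.p6, 5′ to 3′) was searched on both strands, over 250 bases, for 7 short motifs. They were the TATA box letters TATAAA, the CCAAT box, the AP-1 letters TGANTCA, the CRE letters TGACGTCA, the TEAD letters CATTCC, the E-box CACGTG and, for grainyhead factors, AACCGGTT. No motif is part of another. RefSeq entries were matched for 3 of the 4, and Ly6d was not matched. The stretches outside annotated exons are shown because the 3 genes moved in the same direction but in unlike patterns, and capitals mark the motif matches. For Ptgds the stretch outside exons ends at -94. Its second stretch, from -45 to -18, is shown for its motif match and was not established to lie outside exons.
Scgb1c1, chr7:140845315-140845546, plus strand: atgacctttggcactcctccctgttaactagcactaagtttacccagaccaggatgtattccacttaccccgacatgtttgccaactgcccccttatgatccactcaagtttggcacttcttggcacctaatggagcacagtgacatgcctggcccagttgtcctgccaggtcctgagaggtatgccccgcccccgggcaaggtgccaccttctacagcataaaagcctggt
Sprr1a, chr3:92485896-92486131, minus strand: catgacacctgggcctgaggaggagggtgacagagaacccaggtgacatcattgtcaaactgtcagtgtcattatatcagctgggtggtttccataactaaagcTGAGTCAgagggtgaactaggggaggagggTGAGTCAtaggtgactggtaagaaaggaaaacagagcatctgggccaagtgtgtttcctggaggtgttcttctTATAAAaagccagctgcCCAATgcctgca
Ptgds, chr2:25469843-25469999, minus strand: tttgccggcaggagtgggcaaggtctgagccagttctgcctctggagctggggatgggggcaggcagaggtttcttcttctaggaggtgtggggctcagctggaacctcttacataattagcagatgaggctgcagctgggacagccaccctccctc
Ptgds, chr2:25469767-25469794, minus strand: aggccaagccTGACTCAtaaataggggg

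TGANTCA stood at -146 to -140 and -116 to -110 before the start of Sprr1a and at -35 to -29 before that of Ptgds. Sprr1a also held TATAAA at -43 to -38 and CCAAT at -26 to -22. None of the 7 motifs was found in the window of Scgb1c1. Of 32851 promoter windows of this length, 6.75% held TGANTCA, 12.4% TATAAA and 33.8% CCAAT. The other motifs were held by 12.6% (CATTCC), 6.02% (CACGTG), 1.55% (TGACGTCA) and 0.116% (AACCGGTT). A match here describes letters and not a bound site. Gene spans are those of GENCODE and positions are counted from the RefSeq start, which for each of the 3 lies inside the GENCODE span. Both stretches of Ptgds therefore lie within its GENCODE span.

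Scgb1c1 came on late in LKO livers and reached the highest level of the 4 genes. From CT0 to CT16 its 18 LKO libraries measured 0 to 0.765 FPKM (median 0.226), against 0 to 0.365 FPKM (median 0) in 18 Flox libraries. At CT18 the LKO pair gave 20.5 and 1.45 FPKM, at CT20 12.6 and 18.4, and at CT22 17.7 and 0.327. Levels from CT24 to CT42 ran from 0.329 to 886 FPKM in 20 LKO libraries (median 158), against 0 to 0.449 FPKM (median 0.0494) in 20 Flox libraries. Nearly the whole of the LKO signal thus fell into a window that opened at CT18 and closed after CT42. The CT42 pair still measured 469 and 839 FPKM, while the 4 LKO libraries of CT44 and CT46 measured 1.25, 2.30, 4.91 and 1.39 FPKM.

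Mice of the same time point could differ widely within that window. The LKO pair of CT32 held 109 and 0.329 FPKM of Scgb1c1, that of CT30 123 and 7.55 FPKM, and that of CT38 886 and 167 FPKM. In Flox livers the highest of 48 values was 0.712 FPKM, at CT46, and 24 of the 48 were listed at 0. Above that highest Flox value lay 29 of 48 LKO libraries, 6 on the first day and 23 on the second. The start of Scgb1c1 overlaps the antisense gene C330022C24Rik by 143 bases. The span of Gm45785, a protein-coding gene model on the minus strand that was not measured here, covers all 1223 bases of Scgb1c1. The library kit keeps strand, but whether counting used it is not stated, so reads at these overlaps cannot be assigned with certainty.

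Ptgds followed a similar course from a slightly higher floor. Its LKO libraries measured 0.298 to 3.32 FPKM from CT0 to CT16 (median 1.2, n = 18), against 0.0873 to 2.44 FPKM (median 0.557, n = 18) in Flox. From CT18 to CT22 the 6 LKO values ran from 0.594 to 8.54 FPKM (median 2.85), against 0.204 to 1.83 FPKM (median 0.549) in Flox. From CT24 to CT42 they ran from 0.510 to 173 FPKM (median 46.3, n = 20), against 0 to 2.02 FPKM (median 0.315, n = 20). The early ranges overlapped, and from CT24 to CT42 every LKO library was above the highest Flox value of the series except 1 at CT32, where the LKO pair gave 41.8 and 0.510 FPKM. At CT36, CT38 and CT40 the LKO pairs measured 83.3 and 173, 164 and 131, and 132 and 155 FPKM. After 116 and 93.8 FPKM at CT42, the LKO libraries of CT44 held 0.684 and 0.784 FPKM and those of CT46 6.75 and 3.44 FPKM. Above the highest Flox value, 2.44 FPKM at CT8, lay 26 of 48 LKO libraries.

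**Figure D1:**
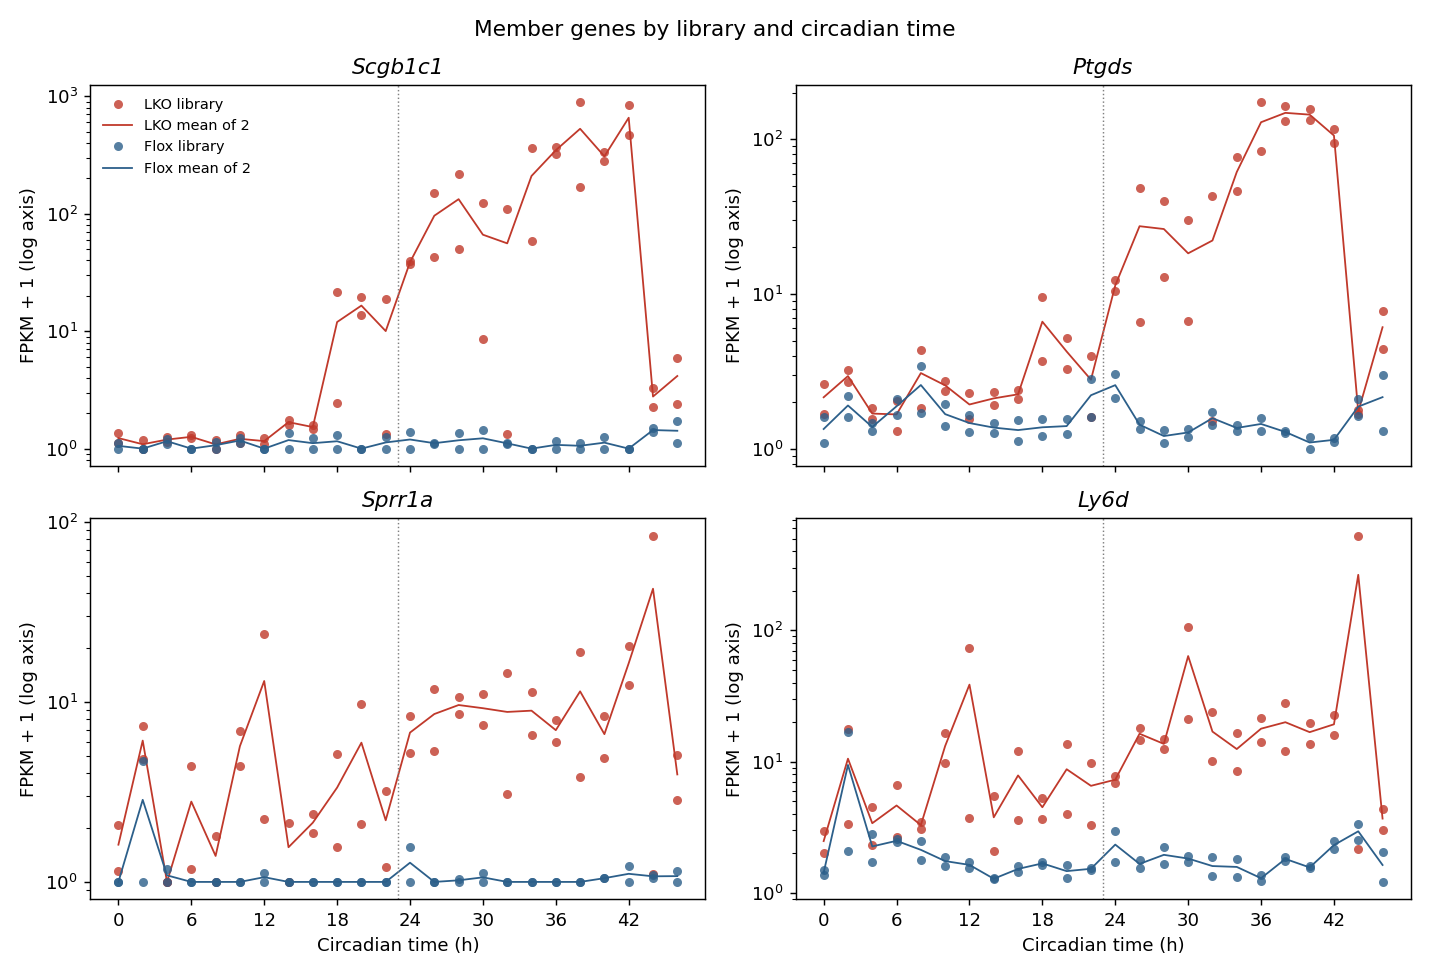
FPKM + 1 (log axis) of each gene against circadian time in h, with 1 point per library, lines through the mean of the 2 libraries of a time point, LKO in red and Flox in blue, and a dotted line between the sampling days. Scgb1c1 and Ptgds rise in LKO from CT18 to CT42 and are low again at CT44 and CT46, while Sprr1a and Ly6d show single high LKO libraries at CT12 and CT44 and a high Flox library at CT2.

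Sprr1a was present at low level in LKO livers of both days and was listed at 0 in 36 of 48 Flox livers. From CT0 to CT16 the LKO libraries measured 0 to 22.9 FPKM (median 1.09, n = 18), against 0 to 3.71 FPKM (median 0, n = 18) in Flox. From CT24 to CT42 they measured 2.09 to 19.4 FPKM (median 7.34, n = 20), against 0 to 0.557 FPKM (median 0, n = 20), with no overlap between the genotypes. The highest LKO library was 1 of the CT44 pair, with 82.8 FPKM beside 0.10 FPKM in the other mouse. The next was CT12, with 22.9 and 1.23 FPKM. Flox livers had 1 clear exception, the letter B library of CT2 at 3.71 FPKM, and the second highest Flox value was 0.557 FPKM. Above the highest Flox value lay 26 of 48 LKO libraries, and above the second highest 39.

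Ly6d was the member that Flox livers expressed at a measurable level in every library. From CT0 to CT16 it measured 0.996 to 72.5 FPKM in LKO (median 2.65, n = 18), against 0.267 to 15.8 FPKM (median 0.714, n = 18) in Flox. From CT24 to CT42 it measured 5.83 to 105 FPKM in LKO (median 14.4, n = 20), against 0.224 to 1.95 FPKM (median 0.747, n = 20) in Flox. The second-day ranges did not overlap up to CT42, while the first-day ranges did. At CT44 the LKO pair measured 528 and 1.14 FPKM, so 1 mouse held 47.4% of the sum over all 48 LKO livers. The pairs of CT12 (72.5 and 2.72 FPKM) and CT30 (105 and 20.3 FPKM) were also uneven. The Flox library that stood out for Sprr1a, CT2 with letter B, held 15.8 FPKM of Ly6d, against 2.34 FPKM in the next Flox library. For that reason 11 of 48 LKO libraries lay above the highest Flox value and 39 above the second highest.

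Set against all genes, the 4 had large genotype differences, which is how they were chosen. The difference of log2(FPKM + 1), LKO minus Flox, was 3.35 for Scgb1c1, 2.40 for Ptgds, 2.31 for Ly6d and 2.08 for Sprr1a, which ranked 1, 2, 3 and 6 among 9901 genes. Without CT42 to CT46 the differences were 3.28, 2.36, 2.27 and 1.96. This scale understates the change of a gene that is near 0 in Flox. The threshold was an adjusted p of 0.05 in limma, and 58.5% of all genes passed it, 39.4% higher in LKO and 19.1% lower (3897 and 1896 genes). The split was 3269 higher and 3018 lower after scaling by median ratios, 2893 and 3535 after quantile normalization, and 3200 and 3030 without CT42 to CT46. The 4 passed it as well, and nothing is read from that count. All 4 met the filter of a mean of 1 FPKM over 96 libraries, but the Flox means of Scgb1c1, Ptgds and Sprr1a were below 1, so these 3 entered through their LKO levels. In whole liver, more cells that express a gene and more RNA per cell cannot be told apart.

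Mean levels of all 4 genes were higher on the second than on the first day in LKO livers. Second-day and first-day means in LKO were 203 ± 248 and 3.16 ± 6.57 FPKM for Scgb1c1, 57.5 ± 58.8 and 1.84 ± 1.73 FPKM for Ptgds, 10.6 ± 16.1 and 2.90 ± 4.86 FPKM for Sprr1a, and 38.4 ± 106 and 7.96 ± 14.5 FPKM for Ly6d (SD, n = 24 each). On the log2(FPKM + 1) scale, second minus first day within clock phase, the LKO differences were 4.99 (SE 0.62) for Scgb1c1, 3.35 (SE 0.42) for Ptgds, 1.61 (SE 0.34) for Sprr1a and 1.49 (SE 0.40) for Ly6d. Scgb1c1 and Ptgds ranked 1 and 2 of 9901 genes, Sprr1a 48 and Ly6d 66. Without CT42 to CT46 the differences were 6.27, 4.01, 1.64 and 1.58. Rises between days were common in LKO: 62.9% of all genes passed the threshold, 5322 higher and 910 lower, or 53.8% and 9.19%. After scaling by median ratios the split was 2906 higher and 2636 lower, and after quantile normalization 2521 higher and 2847 lower. The median gene differed by 0.23 as deposited and by 0.02 after scaling by median ratios. All 4 genes passed in LKO, and since their time course was known when they were chosen no p is given and nothing is read from the count.

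In Flox livers the same contrast gave 0.09 (SE 0.06) for Scgb1c1, -0.12 (SE 0.10) for Ptgds, -0.04 (SE 0.10) for Sprr1a and -0.06 (SE 0.16) for Ly6d. None of the 4 passed in Flox, where 53.6% of all genes did, 11.6% higher and 42% lower on the second day (1144 and 4161 genes, or 2415 and 2503 after scaling by median ratios). Nothing is read from that count either: Scgb1c1, Ptgds and Sprr1a entered the fit through their LKO levels and were near 0 in Flox. The LKO day difference minus the Flox one was 4.90 (SE 0.64) for Scgb1c1, 3.47 (SE 0.44) for Ptgds, 1.65 (SE 0.36) for Sprr1a and 1.54 (SE 0.44) for Ly6d. All 4 exceeded the threshold for this difference, as did 69.3% of all genes, 59.6% with a positive and 9.73% with a negative difference (5901 and 963 genes, or 3146 and 2903 after scaling by median ratios), and nothing is read from that count. With the libraries of letter A alone the differences of Sprr1a and Ly6d were 1.56 and 0.88 and no longer passed.

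**Figure D2:**
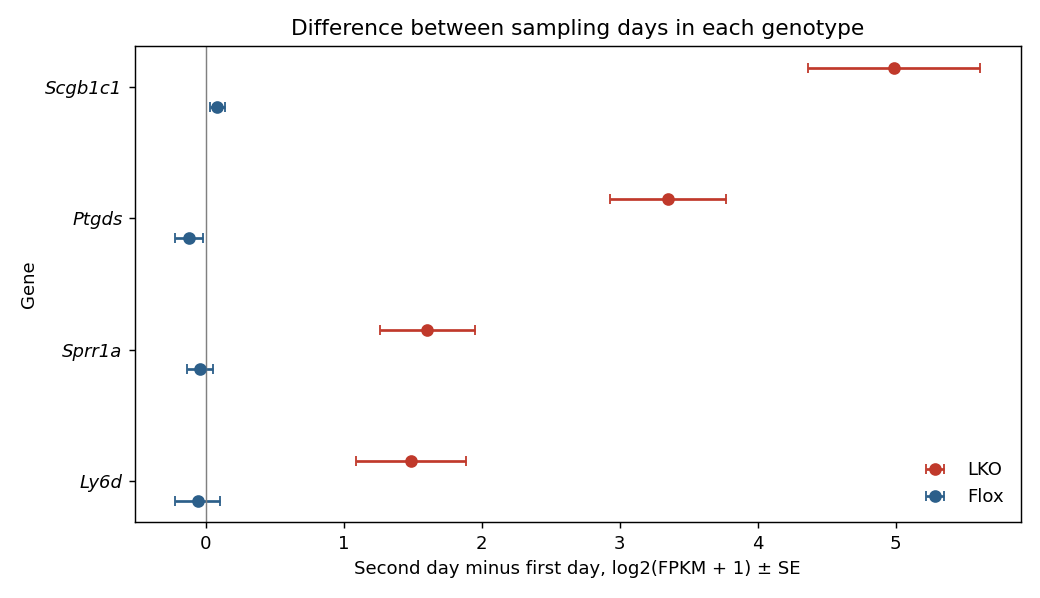
Second day minus first day in log2(FPKM + 1), with SE, for each gene in LKO (red, upper) and Flox (blue, lower), fitted over 48 libraries of a genotype. The LKO differences run from 1.49 for Ly6d to 4.99 for Scgb1c1, and the Flox differences lie between -0.12 and 0.09.

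The series asks about liver rhythms of about 12 h. Since the time course of the 4 genes was known when they were chosen, their rhythm is given as a description with no p. With a day term in the fit, the 24 h component in LKO had an amplitude in log2 of 1.08 for Scgb1c1 (fitted peak at circadian hour 15.3), 1.01 for Ptgds (peak at hour 13.8), 0.43 for Ly6d and 0.20 for Sprr1a. The first 2 of these 4 passed the threshold, where 58.3% of all genes did, and nothing is read from that count. The fit assumes the same shape on both days, while both genes measured at most 3.32 FPKM through CT16 of the first day in LKO. Without CT42 to CT46 the amplitudes were 1.55 for Scgb1c1 and 1.01 for Ptgds. With letter A alone neither passed, and without letter A 1 of the 4 did.

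The 12 h component in LKO had an amplitude of 0.79 for Scgb1c1, 0.66 for Ptgds, 0.20 for Ly6d and 0.06 for Sprr1a. Of the 4 genes 0 passed in limma, where 20.2% of all genes did, and 2 had an unadjusted p below 0.05. Without CT42 to CT46 the amplitudes of Scgb1c1 and Ptgds were 0.26 and 0.12, and 13 of 9901 genes passed. In Flox the amplitudes of the 4 genes were 0.06 to 0.28 for 24 h and 0.03 to 0.25 for 12 h, where 37.9% and 4.3% of all genes passed and nothing is read from genes near 0. A difference in rhythm between genotypes was not tested.

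Over all 48 LKO livers the correlations were highest within 2 pairs of genes. Spearman's rho was 0.87 between Scgb1c1 and Ptgds and 0.86 between Sprr1a and Ly6d, and 0.54 to 0.62 across the pairs. Pearson's r on log2(FPKM + 1) was 0.95 and 0.86 within the pairs, and 0.95 and 0.83 without the 2 libraries farthest from the median. All points share their library and its scaling, and libraries of 1 day share the general rise between days, so these values describe the libraries and carry no test. Within the second day rho was 0.93 for Scgb1c1 with Ptgds and 0.67 for Sprr1a with Ly6d (n = 24). Within the first day it was 0.48 and 0.82. Scgb1c1 with Ptgds was thus tighter when both were high, and Sprr1a with Ly6d was tighter on the first day. Across the pairs rho was 0.33 to 0.53 within the second day and 0.01 to 0.44 within the first. Without CT42 to CT46 it was 0.87 and 0.85 within the pairs and 0.54 to 0.67 across them (n = 42). From CT24 to CT42 it was 0.88 for Scgb1c1 with Ptgds and 0.46 for Sprr1a with Ly6d (n = 20). Across the pairs it was 0.26 to 0.54 there, so Sprr1a with Ly6d did not stand apart in that window.

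The difference between the 2 LKO mice of a time point removes what time gives to both. Over 24 such differences rho was 0.71 within each pair and 0.12 to 0.47 across pairs. The mouse with more Scgb1c1 also had more Ptgds at 20 of 24 time points, and the mouse with more Sprr1a had more Ly6d at 17. Across pairs the direction was shared at 13 to 16 time points. The uneven pairs show this gene by gene: the LKO library of CT44 with letter B had 528 FPKM of Ly6d and 82.8 FPKM of Sprr1a but 2.30 FPKM of Scgb1c1 and 0.784 FPKM of Ptgds. The LKO library of CT12 with letter A had 72.5 FPKM of Ly6d and 22.9 of Sprr1a beside 0.0872 FPKM of Scgb1c1 and 1.31 of Ptgds.

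**Figure D3:**
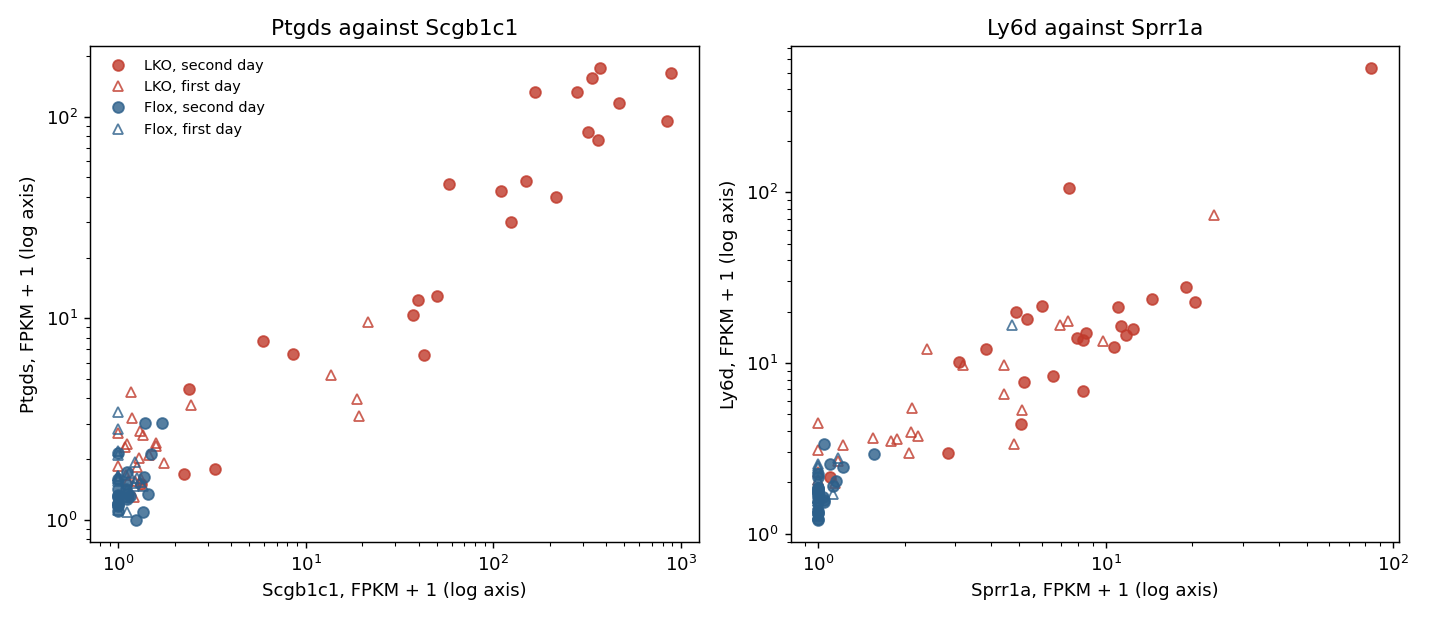
FPKM + 1 of Ptgds against Scgb1c1 (left) and of Ly6d against Sprr1a (right), both axes logarithmic, with 1 point per library, LKO in red and Flox in blue, filled circles for the second day and open triangles for the first. Most Flox points sit near the origin, and LKO points of the second day spread along the diagonal, with rho of 0.93 on the left and 0.67 on the right.

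Lcn2, an acute-phase lipocalin, was higher than in the paired library in 4 single libraries high in Ly6d. It measured 442 FPKM in the LKO library of CT12 with letter A, against 22.4 FPKM in its pair. It held 1059 FPKM in the LKO library of CT30 with letter B, against 14.2 in its pair, and 683 FPKM in that of CT44 with letter B, against 4.79 in its pair. The Flox library of CT2 with letter B held 31.03 FPKM of Lcn2, against 1.17 FPKM in its pair. Each of these 4 libraries was the higher of its pair for Lcn2 and for Ly6d, and they were singled out after their values had been seen. Sprr1a was higher than in the pair in the libraries of CT12, CT44 and Flox CT2, but lower in that of CT30 (6.44 against 9.99 FPKM). Between genotypes, over all libraries, 17 of 22 genes of hepatocyte stress and fetal liver were tested and 16 were higher in LKO, where 39.4% of all tested genes were higher (3269 of 9901 after scaling by median ratios, 2893 after quantile normalization). Their median difference was 1.26, against 0.07 over all genes. The part of these genes in the levels of Sprr1a and Ly6d was not tested.

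The genes most like each member were found over the 48 LKO livers by Spearman's rho. For Scgb1c1 they were Mup6, a major urinary protein (0.91), the carbonic anhydrase Car2 (0.90), Pcp4l1 (0.90), the cytochrome oxidase subunit Cox6b2 (0.88) and the cytochrome P450 Cyp3a41a (0.87). For Ptgds they were the homeobox gene Sebox (0.89), the odorant-binding lipocalin Obp2a (0.85), Pcp4l1 (0.84), the beta-defensin Defb1 (0.83) and Cgref1 (0.82). These 9 genes were chosen over the same libraries, so the choice favoured a rise between days and nothing is read from it. Each had a higher mean on the second than on the first day in LKO. Obp2a, for example, averaged 59.5 ± 66.1 FPKM in second-day and 3.80 ± 3.33 FPKM in first-day LKO livers, and 4.11 ± 2.78 and 3.28 ± 2.44 FPKM in Flox livers of the same days (SD, n = 24 each). Cyp3a41a averaged 34.9 ± 32.4 and 1.44 ± 2.06 FPKM in LKO, and 1.06 ± 0.418 and 1.11 ± 0.275 FPKM in Flox. Between mice of a time point rho with Scgb1c1 was 0.67 to 0.78 for its 5 genes.

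For Sprr1a the nearest genes were Defb1 (0.81), the glutathione transferase Gstm3 (0.81), Npdc1 (0.81), the plasminogen activator Plat (0.80) and Mfge8, which bridges phagocytes to dying cells (0.80). For Ly6d they were Gstm3 (0.88), Npdc1 (0.86), the interferon-inducible Ifi27l2b (0.82), Mfge8 (0.80) and Plat (0.80), so 4 of the 5 were shared. Gstm3 measured 1467 FPKM in the LKO library of CT44 with letter B and 26.1 FPKM in its pair, and 126 FPKM in the Flox library of CT2 with letter B and 53.8 FPKM in its pair. Plat averaged 5.62 ± 4.74 FPKM in second-day and 0.567 ± 0.473 FPKM in first-day LKO livers, against 0.111 ± 0.0471 and 0.0903 ± 0.0904 FPKM in Flox (SD, n = 24 each). Mup6, Cyp3a41a and Gstm3 belong to families of near-identical copies that can share reads, so their values are uncertain.

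In the opposite direction, Slc1a2, a glutamate transporter of pericentral hepatocytes, had rho of -0.87 with Scgb1c1, -0.83 with Ptgds, -0.71 with Sprr1a and -0.61 with Ly6d, and it was singled out after its values had been seen. It averaged 2.23 ± 1.71 FPKM in second-day and 9.18 ± 4.58 FPKM in first-day LKO livers, against 13.2 ± 3.63 and 16.96 ± 2.81 FPKM in Flox (SD, n = 24 each). At CT32 the LKO library with letter B, in which Scgb1c1 and Ptgds were low, held 8.11 FPKM of Slc1a2, the highest of the 24 second-day LKO values, and 1.58 FPKM was measured in its pair. The same library held 0.783 FPKM of Obp2a and 1.23 FPKM of Cyp3a41a, against 34.4 and 31.3 FPKM in its pair. Of the other genes most like Scgb1c1 and Ptgds it held 0.457 FPKM of Mup6, 2.11 of Car2, 0.703 of Pcp4l1, 0.487 of Cox6b2, 0.496 of Sebox, 0.818 of Defb1 and 0.543 of Cgref1. Its pair held 11.3 FPKM of Mup6, 15.4 of Car2, 16.8 of Pcp4l1, 8.27 of Cox6b2, 2.48 of Sebox, 9.85 of Defb1 and 5.40 of Cgref1. Each of the 9 genes was thus lower in the letter B mouse of CT32 than in its pair. Both libraries were among those the 9 genes were chosen on, so nothing is read from this.

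**Figure D4:**
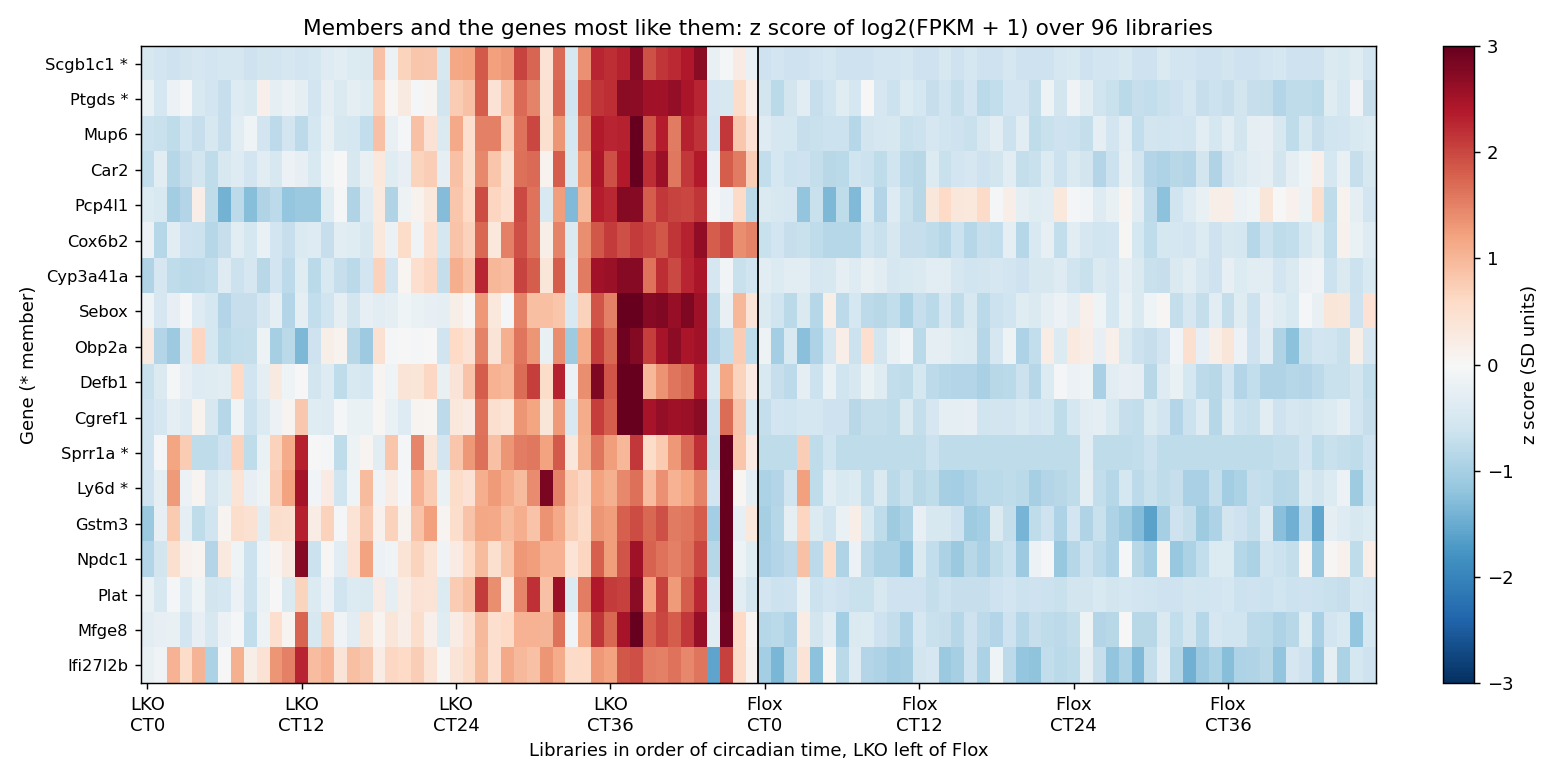
Heat map of log2(FPKM + 1) in SD units over 96 libraries (columns, LKO left of Flox, each in order of circadian time) for the 4 genes, marked with asterisks, and the genes most like them (rows). Rows near Scgb1c1 and Ptgds are high in LKO from CT24 to CT42, and rows near Sprr1a and Ly6d are high also in single LKO columns at CT12 and CT44.

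Tested neighbours on the chromosome differed less between LKO days than the gene they flank. Nothing is read from this, since Scgb1c1, Ptgds and Ly6d ranked 1, 2 and 66 of 9901 genes for that difference. Within 60 kb of Scgb1c1 8 of 13 annotated genes were measured and 6 tested between days in LKO, of which 1 was higher and 3 lower on the second day, where 53.8% of all tested genes were higher and 9.19% lower. Urah, 7581 bases away, averaged 183 FPKM in second-day and 154 FPKM in first-day LKO livers, against 240 and 221 FPKM in Flox. The overlapping C330022C24Rik averaged 0.940 and 1.82 FPKM in LKO, against 0.949 and 0.932 FPKM in Flox, and was lower on the second day in LKO (log2 difference -0.51, limma adjusted p = 0.000392). The others that passed were Psmd13 (0.84, adjusted p = 0.000155), Sirt3 (-0.49, adjusted p = 1.49e-06) and BC024386 (-1.48, adjusted p = 4.59e-08). They were named after their values were seen. Near Ptgds 6 of 10 genes were measured and 5 tested, with 2 higher and 1 lower, and Npdc1, 57215 bases away, was higher by 0.72 (adjusted p = 0.00033). It is also among the genes most like Sprr1a and Ly6d. Near Ly6d 3 of 14 genes were measured, and 1 was tested and was higher, Them6 (0.58, adjusted p = 7.54e-06). None of the 7 genes within 60 kb of Sprr1a was measured here.

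Lists of prostaglandin genes, of the Ly6 family and of lipocalins give relatives of Ptgds and Ly6d by function or sequence. Of a list of prostaglandin genes drawn up for the prostaglandin D2 pathway, without Ptgds, 10 of 15 were measured and 7 tested between genotypes. Of these 4 were higher and 2 lower in LKO, with a median of 0.18 against 0.07 over all genes. The 7 were Ptgs1, Hpgd, Ptgr1, Cbr1, Ptges2, Ptges3 and Tbxas1. None of them is specific to prostaglandin D2, so nothing is read about that pathway. Among all tested genes 39.4% were higher and 19.1% lower in LKO. Cbr1, a carbonyl reductase of prostaglandins, averaged 77.8 FPKM in LKO and 63.1 FPKM in Flox (0.28, SE 0.06, limma adjusted p = 9.51e-05). Hpgds, the hematopoietic prostaglandin D synthase, averaged 0.378 ± 0.242 FPKM in LKO and 0.149 ± 0.0861 FPKM in Flox (SD, n = 48 each), below the filter, and was named after its values were seen. Of the Ly6 family without Ly6d, 9 of 12 genes were measured and 6 tested. In LKO 4 were higher and 0 lower, beside the same 39.4% and 19.1% of all tested genes. Ly6e averaged 170 ± 79.9 FPKM in LKO and 96.8 ± 38.3 FPKM in Flox (SD, n = 48 each), and Plaur, the urokinase receptor, 9.34 ± 24.8 and 0.171 ± 0.104 FPKM. Cd59a, an inhibitor of complement, fell by 0.68 between LKO days (adjusted p = 1.17e-06). No secretoglobin other than Scgb1c1 was among the genes measured here. Of 26 lipocalins other than Ptgds 25 were measured and tested, many of them major urinary proteins whose near-identical copies can share reads. In LKO 6 were higher and 12 lower than in Flox, with a median of -0.38. Between LKO days 3 were higher and 11 lower, where 53.8% of all tested genes were higher and 9.19% lower. Of 13 markers of tissues rich in Ptgds 2 were measured, and the 1 tested, Slc47a1, was lower by 0.84 on the second LKO day.

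The word epithelial was checked against markers. Of 30 markers of squamous epithelium 8 were measured, and their sum was 19.9 to 75.0 FPKM in LKO and 26.7 to 61.1 FPKM in Flox. Of the 4 that were tested, Sfn was higher in LKO (0.52, limma adjusted p = 1.47e-09), Dsp was lower (-0.46, adjusted p = 0.00103), and Perp and Tgm1 gave -0.10 and -0.07 without passing. Perp, a desmosome protein, made up most of the sum, with 33.4 ± 10.6 FPKM in LKO and 34.7 ± 5.78 FPKM in Flox (SD, n = 48 each). Loricrin (Lor), a main component of the cornified envelope, averaged 0.455 ± 0.215 FPKM in LKO and 0.621 ± 0.271 FPKM in Flox. Below the filter, Sbsn averaged 0.758 ± 1.02 FPKM in LKO and 0.144 ± 0.0825 FPKM in Flox, and the keratin Krt10 0.758 ± 0.271 and 0.528 ± 0.173 FPKM (SD, n = 48 each); both were named after their values were seen. Between LKO days 2 of the 4 tested markers were higher and 0 lower, where 53.8% of all tested genes were higher and 9.19% lower. With 8 of 30 markers measured the check is limited, since it is not known whether the other markers were undetected or left out. The 4 genes are called by their names.

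Of 15 markers of airway and olfactory secretory epithelium 3 were measured, with sums of 1.49 to 224 FPKM in LKO and 0.822 to 12.1 FPKM in Flox. Obp2a made up most of them and was higher in LKO (1.32, limma adjusted p = 6.11e-05), while Cyp2g1 averaged 0.687 FPKM in LKO and 0.356 FPKM in Flox, and Foxj1 0.482 and 0.147 FPKM. Of 9 lung epithelial markers 5 were measured and 1, Hopx, was tested and was lower in LKO. The markers below the filter had higher means in LKO: Sftpd averaged 1.51 ± 1.99 FPKM in LKO and 0.195 ± 0.121 FPKM in Flox, Napsa 1.29 ± 2.68 and 0.145 ± 0.084 FPKM, Sftpa1 0.658 ± 0.558 and 0.231 ± 0.129 FPKM, and Slc34a2, named after its values were seen, 0.628 ± 0.804 and 0.276 ± 0.327 FPKM (SD, n = 48 each). Of the alveolar macrophage list 13 of 19 were measured and tested, and 12 were higher in LKO, where 39.4% of all tested genes were higher. The sum of those markers was in its high range in all 6 LKO libraries of CT42 to CT46. Scgb1c1 and Ptgds were low in the 4 of CT44 and CT46, but the CT42 pair held 469 and 839 FPKM of Scgb1c1 and 116 and 93.8 FPKM of Ptgds. Without CT42 to CT46 that sum had a rho of 0.47 with Scgb1c1, 0.46 with Ptgds, 0.58 with Sprr1a and 0.69 with Ly6d over 42 LKO libraries that share their scaling. Within the first day these values were 0.34, 0.31, 0.54 and 0.75 (n = 24 LKO libraries). Within the second day, CT42 to CT46 included, they were -0.13, -0.23, 0.07 and 0.11 (n = 24). The hepatocyte list, led by Alb, summed to 22080.1 to 33955 FPKM in the 6 LKO libraries taken at CT42, CT44 and CT46, against 30901 to 55576 FPKM in Flox at those times, and to 29296 to 52900.2 FPKM in the 42 earlier LKO libraries, against 33976 to 57567 FPKM in Flox. The part of these lists in the levels of the 4 genes was not tested.

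Markers of cholangiocytes, the cells that line bile ducts, were also higher in LKO. Of 14 such markers 11 were measured and 7 tested, and 6 of the 7 were higher in LKO and 0 lower, where 39.4% of all tested genes were higher and 19.1% lower. Their sum ran from 40.3 to 1028 FPKM in LKO (median 98.5), against 30.98 to 82.1 FPKM in Flox (median 44.8), and from 40.3 to 527 FPKM in the 42 LKO libraries up to CT40. The keratin Krt19 averaged 20.5 ± 51.9 FPKM in LKO and 0.817 ± 0.520 FPKM in Flox, and Spp1, which encodes osteopontin, 102 ± 127 and 22.1 ± 8.83 FPKM (SD, n = 48 each). By day, Krt19 averaged 2.06 ± 1.01 FPKM in first-day and 38.9 ± 69.2 FPKM in second-day LKO livers (SD, n = 24 each). The sum over the list had nearly the same LKO median on both days, 98.5 FPKM on the first and 99.6 FPKM on the second. Up to CT40 that median was 93.4 FPKM (n = 42), while the 6 later LKO livers had a median of 425 FPKM and a lowest sum of 289 FPKM. Krt19 was not averaged without these 6 livers, so its day means cannot be separated from them. Within the first day the sum had a rho of 0.63 with Sprr1a, 0.54 with Ly6d, 0.21 with Ptgds and 0.04 with Scgb1c1 (n = 24 LKO libraries). Within the second day these values were 0.22, 0.16, -0.06 and -0.04. The part of this list in the levels of the 4 genes was not tested.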

How the data were processed

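Liver RNA of 96 mice was sequenced from stranded mRNA libraries, per the labels' protocols. The authors deposited 1 table of FPKM for 13094 entries. The unit was read from its values and from the tools, since the header names none. Reads were handled with FastQC, Trimmomatic, HISAT2 and Cufflinks on mm10, per the submitters' processing notes, which name no versions. FPKM give no counts, so depth is unknown and no counting interval is given.

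Values were analysed as log2(FPKM + 1) with limma 3.58.1 in R 4.3.3 (intensity trend, robust moderation), for 9901 entries that averaged 1 FPKM or more over 96 libraries. Two-sided p-values were adjusted over all of these by the Benjamini-Hochberg method, with a threshold of 0.05. The fits were genotype with 24 time points, day with 12 clock phases in each genotype, the difference of the day contrasts, and 24 h and 12 h cosine and sine terms with a day term. The fit was tested on simulated data. Genes named beside the 4 are the 5 with the highest Spearman's rho to each over LKO libraries, and from each list described up to 4 with the highest LKO mean. Exceptions are marked as chosen after their values were seen. The genes and the lists were chosen with earlier results of these data known. Letters A, B and C (44, 48 and 4 libraries) mark replicates, with nothing that says a letter is shared across groups. Libraries are separate mice per the labels. Positions come from GENCODE M21 and sequences from RefSeq (GRCm38.p6). Alternatives changed the pseudocount, filter, scaling, time points, letters and replicate block.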

Additional observations from a re-analysis of the deposited data

Results flagged for a closer look

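Within windows of 3 consecutive time points, which hold 6 libraries of a genotype, the gap between the highest library and the next was tested by Dixon's ratio. It was past the 95% critical value in 17 of 62 groups, 9 in LKO and 8 in Flox. Chance gives about 1 in 20, but the values are those the genes were chosen on, and a Flox window whose other values are all 0 is past the value by construction, so nothing is read from the count. Letters name the library.

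In LKO livers Ly6d stood out at 16.7 FPKM (CT2, A), 72.5 FPKM (CT12, A), 105 FPKM (CT30, B) and 528 FPKM (CT44, B). Sprr1a stood out in LKO at 22.9 FPKM (CT12, A), 18.02 FPKM (CT38, A) and 82.8 FPKM (CT44, B). Scgb1c1 stood out in LKO at 359 FPKM (CT34, B) and 886 FPKM (CT38, A). In Flox livers the CT2 library with letter B stood out for both Ly6d (15.8 FPKM) and Sprr1a (3.71 FPKM). The other Flox values were small: Sprr1a at 0.126 FPKM (CT12, B), 0.557 FPKM (CT24, C) and 0.121 FPKM (CT30, A), Ptgds at 2.44 FPKM (CT8, A) and 1.83 FPKM (CT22, A), and Scgb1c1 at 0.449 FPKM (CT30, B).

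The difference between days was larger in LKO than in Flox for all 4 genes, by 4.90 for Scgb1c1, 3.47 for Ptgds, 1.65 for Sprr1a and 1.54 for Ly6d in log2(FPKM + 1). These are descriptions with no test, since the time course was known when the genes were chosen. With letter A alone the values of Sprr1a and Ly6d were 1.56 and 0.88.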

How the results depend on the processing

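No direction of a called value was reversed under the 9 alternatives, of which leaving out the highest LKO library of each gene was chosen after seeing the data. Over them the LKO day difference ran from 4.81 to 6.42 for Scgb1c1, 3.14 to 4.01 for Ptgds, 1.40 to 2.51 for Sprr1a and 0.97 to 2.01 for Ly6d, and that of Ly6d missed the threshold with letter A alone. With letter A alone 2 of the 4 genes passed the difference of day contrasts (not Sprr1a and Ly6d), 0 passed for a 24 h rhythm in LKO and 3046 genes were called between LKO days, against 6232 in all libraries. Without letter A 1 passed for 24 h and 3492 genes were called, and these settings hold 44 and 52 of 96 libraries. Letter A alone also gave 2678 genes between genotypes (5793 in all libraries), 0 between Flox days (5305; 1263 at an unadjusted p below 0.05), 2668 for the difference of day contrasts (6864), 3845 for 24 h in LKO (5772) and 4 for 12 h in LKO (1998). Without letter A 3488 passed for 24 h and 0 for 12 h in LKO (1440 at an unadjusted p below 0.05), and without CT42 to CT46 3537 and 13. In Flox 24 h calls numbered 384 with letter A alone (3751 in all libraries), and 12 h calls 2 with letter A alone, 14 without it, 260 without CT42 to CT46 and 682 after median-ratio scaling (426). With median-ratio scaling or quantile normalization 1 gene, Ptgds, passed for 12 h in LKO. Without the highest LKO libraries Ly6d passed for 24 h. A pseudocount of 0.1 FPKM moved the genotype difference of Sprr1a to 4.37. With the letter as a replicate block 6186 genes were called between LKO days, and no call on the 4 genes changed. The cause of these changes was not tested, beyond the smaller number of libraries. Depth in reads is unknown, so values near 0 have no detection limit.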
